A study of Mus musculus with 24 samples.

Results

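Islets of mice with Cre, floxed Cop1 and Etv5 and a single normal Etv4 allele were compared with control islets by RNA sequencing. They are called deleted here by their genotype. The comparison used 8 of the 24 libraries of the series, 4 from deleted islets and 4 from controls, all from the second of 2 sets of sample numbers (set 2). It covered 13276 genes, those that reached 1 RPKM (reads per kilobase of gene, scaled to the size of the library) in at least 4 of the 8 libraries, out of 28059 in the table. The deleted mice carried floxed Cop1 (Cop1fl/fl), a knocked-out Etv4 allele beside a normal one (Etv4ko/+), floxed Etv5 (Etv5fl/fl) and Pdx1.CreERT2, and their libraries are called the Etv4/5 libraries here. The controls carried floxed Cop1 (Cop1 fl/fl) and no Cre. All mice were 3 to 4 months old on a mixed background, and their islets were cultured and picked by hand before RNA was extracted. CreERT2 is a Cre recombinase that tamoxifen activates, and the Pdx1 promoter drives it in β cells and some other cells of the pancreas; how it was induced is not given in the sources used here. Because the controls had no Cre, the effects of Cre and of the deletions cannot be told apart in this comparison. Whole islets also hold α, δ and PP cells, vessels and remains of exocrine tissue, so fewer cells of a type and less RNA per cell cannot be told apart either. Replicate numbers 1 to 4 only name libraries, and the sources do not say how they relate to mice, so p-values measure the spread between libraries.

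COP1 is a ubiquitin ligase that works with DET1, DDB1 and CUL4 and marks transcription factors for destruction by the proteasome. Its substrates include ETV1, ETV4 and ETV5, the ETS factors of the PEA3 group, which bind DNA at a GGAA core and act downstream of receptor tyrosine kinases and the kinase ERK. β cells take up glucose through the transporter GLUT2, phosphorylate and oxidise it, close the KATP channel, and release insulin granules when calcium enters. The comparison asks which genes differ from control when Cop1 is absent but ETV5, and part of ETV4, are absent too.

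Control replicate 4 stood apart from the other 7 libraries. On the first principal component of the 8 libraries it lay at 47.6, whereas the others lay between -14.7 and 1.7. Spearman correlations over the genes tested were 0.947 to 0.957 between control replicate 4 and the other controls, 0.989 to 0.992 among those other controls, and 0.992 to 0.996 among the Etv4/5 libraries. Its total RPKM was the lowest, at 524289 against 603857 to 632405 in the other 7, and its summed RPKM of interferon response genes was the highest, at 1815 against 986 to 1244. Set against the deepest of the 12 libraries of set 2, the relative depth read from the smallest values was 0.758 to 1. All 4 controls and Etv4/5 replicates 2 and 4 expressed Xist (44.8 to 62.9 RPKM), whereas Etv4/5 replicates 1 and 3 did not and expressed Y-linked genes at a summed 54.4 and 57.1 RPKM. Sex therefore differed within the Etv4/5 group and not within the controls, and several results are also given without replicates 1 and 3. X-linked genes gave 49 calls of 402 tested (12.2%, against 10.3% of all genes tested), 32 of them higher.

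The targeted genes were examined in every library. Cop1 stood at 1.54, 1.87, 1.72 and 1.43 RPKM in control replicates 1 to 4 and at 0.853, 0.77, 0.856 and 0.783 RPKM in Etv4/5 replicates 1 to 4. No Etv4/5 library reached the lowest control, and Cop1 fell by 0.70 on the log2 scale (SE 0.088, limma adjusted p = 0.0029). Etv5 stood at 6.25, 6.99, 5.38 and 2.93 RPKM in controls and at 1.83, 1.39, 1.42 and 1.59 RPKM in Etv4/5 libraries. The groups did not overlap, control replicate 4 was the lowest control, and Etv5 fell by 1.46 (SE 0.23, adjusted p = 0.0073). Without the 2 Etv4/5 libraries with Y-linked RNA the adjusted p, by limma, was 0.052 for Cop1 and 0.094 for Etv5. The values cover whole genes and whole islets, so reads from exons outside the floxed part and from cells without Cre count toward them.

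Etv4 was low in both groups and did not reach the minimum level for the fit. It stood at 0.474, 0.349, 0.661 and 0.646 RPKM in controls and, although 1 allele was knocked out, at 1.2, 0.843, 0.826 and 0.778 RPKM in Etv4/5 libraries. Every Etv4/5 library was above every control (exact permutation test of the difference of means, 2-sided p = 0.029, the smallest that 4 against 4 allows). Which part of Etv4 the knocked-out allele lacks is not given in the sources used here, so reads from it may count. Etv1, the member of the group that was left intact, stood at 4.48, 5.65, 6.09 and 5.63 RPKM in controls and 5.46, 6.28, 4.9 and 6.85 RPKM in Etv4/5 libraries. These ranges overlapped, and the log2 difference of 0.09 (SE 0.12) was within the spread (adjusted p = 0.67, limma). Esr1, the oestrogen receptor gene, a form of whose hormone-binding domain CreERT2 carries, was at 0.050 to 0.20 RPKM in controls and at 72, 93.9, 98.3 and 96.2 RPKM in Etv4/5 libraries, which matches the labels of all 8.

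**Figure D1:**
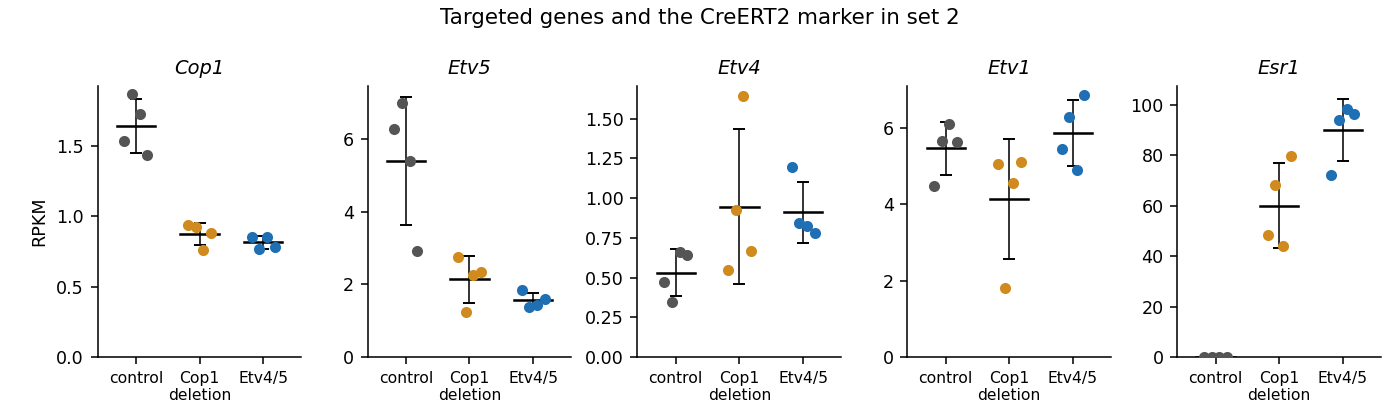
RPKM of the targeted genes and of Esr1 in the 4 control, 4 Cop1 deletion and 4 Etv4/5 libraries of set 2. Points are libraries, horizontal bars are means and error bars are 1 SD. Cop1 and Etv5 lie lower in all 4 Etv4/5 libraries than in the controls, Etv1 overlaps, and Esr1 is near 0 in controls.

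Over all genes, 1370 of 13276 were called, which is 10.3% of those tested. A gene is called here when its limma p, adjusted by the Benjamini-Hochberg method over all genes tested, is below 0.05. Of these, 783 were higher in Etv4/5 libraries (5.9% of genes tested) and 587 lower (4.42%). Most differences were small: 114 called genes differed at least 2-fold, 70 of them higher and 44 lower, and 1363 of the called genes had no overlap between the groups, against 22.3% of all genes tested. The balance of directions rested on the scaling. With libraries scaled to equal total RPKM, which shifts the median gene by -0.08 on the log2 scale, 537 genes were called higher and 1067 lower. Leaving the insulin genes out of that total shifted the median by -0.12 and gave 474 higher and 1809 lower calls. Without control replicate 4, 3541 genes were called (1671 higher, 1870 lower), and 1366 of the 1370 were among them in the same direction. With only the 2 Etv4/5 libraries that express Xist, 220 genes were called, and 215 of the 1370 were among them in the same direction. Of the called genes, 31 (Aqp3, Tm4sf20 and Gast among them) had every control below 1 RPKM and so entered the test through the Etv4/5 libraries alone, and 19 entered it through the controls alone, Cop1 and Atp4a among them. Leaving out libraries cannot turn the sign of the 1363 called genes without overlap, so their sign does not test the part of sex. All 1370 kept their sign without the Y-positive libraries. The median absolute log2 difference of these genes, which were called from the same libraries, was then 0.407, against 0.403 with all 8 libraries.

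**Figure D2:**
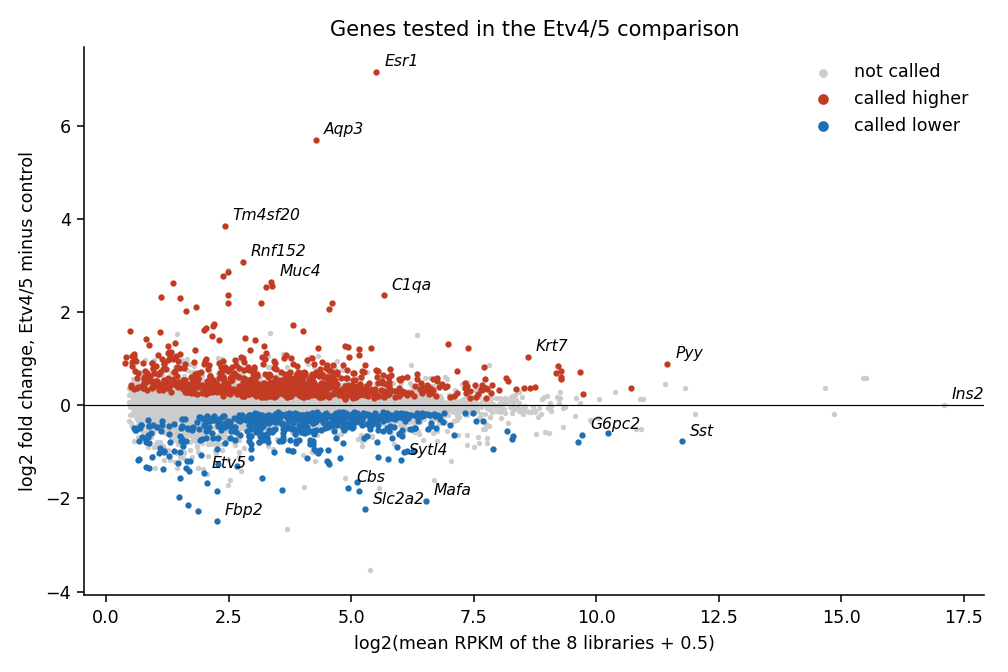
Log2 fold change (Etv4/5 minus control) against mean level for the 13276 genes tested, both on a log2(RPKM + 0.5) scale. Red and blue points are called higher (783) and lower (587), grey points are not called. Esr1 and Aqp3 rose most, and Fbp2, Slc2a2 and Mafa lie among the lowest.

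Genes of glucose uptake and breakdown included 5 called lower and, with all 8 libraries, 0 called higher. Slc2a2 encodes GLUT2, the glucose transporter of rodent β cells. It stood at 85.8, 77.2, 56.6 and 36.4 RPKM in control replicates 1 to 4 and at 8.37, 12.1, 17.1 and 14.3 RPKM in Etv4/5 replicates 1 to 4. The lowest control, replicate 4, was still above the highest Etv4/5 library. Mean Slc2a2 RPKM was 4.95 times higher in controls, and the gene fell by 2.23 on the log2 scale (SE 0.30, limma adjusted p = 0.0039). With Xist-expressing libraries only, the change was -2.17 (adjusted p = 0.047).

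G6pc2, an islet glucose-6-phosphatase subunit, stood at 1193, 912, 937 and 1047 RPKM in controls and 585, 701, 606 and 741 RPKM in Etv4/5 libraries, with no overlap. It fell by 0.63 (SE 0.11, limma adjusted p = 0.011), and that call was lost in the Xist-expressing libraries (adjusted p = 0.13). Pfkfb2, which makes the activator of phosphofructokinase, fell by 0.50 from 16.2 ± 1.52 to 11.3 ± 0.615 RPKM (mean ± SD, n = 4 each, limma adjusted p = 0.0057). Pfkp, a phosphofructokinase, fell by 0.54 (adjusted p = 0.0058), and Aldoc, an aldolase, fell by 0.37 (adjusted p = 0.031). Of the 24 genes tested on the list of glucose uptake, glycolysis and glucose phosphorylation, 0 were called higher, 5 lower and 19 not called. The list's median log2 difference was -0.24, against -0.01 for all genes tested. Without control replicate 4 the list held 2 higher and 5 lower calls, with a median of -0.14.

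β-cell identity genes divided. Mafa encodes a transcription factor of mature β cells that activates the insulin genes and Slc2a2. It stood at 161, 181, 135 and 104 RPKM in controls and at 17.9, 35.3, 51.5 and 41.2 RPKM in Etv4/5 libraries. Etv4/5 replicate 1 was the lowest and replicate 3 the highest of its group, and none reached the lowest control. Mafa fell by 2.05 (SE 0.32, limma adjusted p = 0.0068), which is 3.99 times in mean RPKM. With sex as a term in the model the adjusted p was 0.059, and with Xist-expressing libraries alone it was 0.025. Neurod1, a basic helix-loop-helix factor of endocrine cells, stood at 91.2, 91.5, 90.1 and 80.9 RPKM in controls and 61.3, 62.7, 60.7 and 64.9 RPKM in Etv4/5 libraries. It fell by 0.50 (SE 0.052, adjusted p = 0.0012, limma) with a gap between the groups wider than the range within either.

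Pcsk1, the prohormone convertase that starts the conversion of proinsulin, fell by 0.55 from 342 ± 49.8 to 233 ± 24.7 RPKM (n = 4 each, limma adjusted p = 0.029). Adgrg1, an adhesion receptor abundant in islets, rose by 0.29 (adjusted p = 0.024). These were the only calls on the list of β-cell identity and maturity: 1 of 31 tested was called higher, 5 lower and 25 not called, with a median of 0.02. With equal total RPKM the list held 2 higher and 9 lower calls, and without control replicate 4 it held 6 and 10. None of Ins1, Ins2 and Pdx1 passed the test (genes chosen after their values were seen). Ins2 stood at 144728, 158544, 137463 and 113154 RPKM in controls and 133212, 135879, 153409 and 134436 RPKM in Etv4/5 libraries, and the ranges overlapped. Together Ins1 and Ins2 made up 26.9% to 30.7% of total RPKM in controls and 25.8% to 28.9% in Etv4/5 libraries. Pdx1, the pancreatic homeobox gene whose promoter drives the Cre, stood at 70.3 ± 16.7 and 83.5 ± 14.7 RPKM (adjusted p = 0.44, limma).

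The bases upstream of 4 of these genes are shown because the ETS factors targeted here bind GGAA cores near start sites. Aqp3 is the endogenous gene that rose most, Dusp5 is an ERK-induced gene that rose, and Slc2a2 and Neurod1 fell. Each run holds the 250 bases before the RefSeq start site (GRCm38.p6), 5′ to 3′ on the strand of the gene, and capitals mark AGGAAG or its reverse complement CTTCCT, or CCGGAA or its reverse complement TTCCGG, wherever they occur.
Aqp3 (chr4:41098184-41098433, minus strand): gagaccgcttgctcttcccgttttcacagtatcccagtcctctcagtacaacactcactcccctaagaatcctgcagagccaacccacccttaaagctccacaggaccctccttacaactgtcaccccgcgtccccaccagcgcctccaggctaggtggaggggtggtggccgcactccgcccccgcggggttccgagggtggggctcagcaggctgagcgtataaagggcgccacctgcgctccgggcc
Slc2a2 (chr3:28697653-28697902, plus strand): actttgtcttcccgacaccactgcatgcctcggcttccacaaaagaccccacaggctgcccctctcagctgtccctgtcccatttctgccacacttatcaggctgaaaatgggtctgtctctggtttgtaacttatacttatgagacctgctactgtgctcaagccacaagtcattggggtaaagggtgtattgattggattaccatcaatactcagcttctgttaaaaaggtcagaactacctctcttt
Dusp5 (chr19:53528895-53529144, plus strand): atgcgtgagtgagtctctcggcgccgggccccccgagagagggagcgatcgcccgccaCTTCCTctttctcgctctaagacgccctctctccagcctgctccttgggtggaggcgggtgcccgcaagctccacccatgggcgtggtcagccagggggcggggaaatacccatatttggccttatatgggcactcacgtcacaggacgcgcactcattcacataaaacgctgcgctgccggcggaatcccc
Neurod1 (chr2:79456637-79456886, minus strand): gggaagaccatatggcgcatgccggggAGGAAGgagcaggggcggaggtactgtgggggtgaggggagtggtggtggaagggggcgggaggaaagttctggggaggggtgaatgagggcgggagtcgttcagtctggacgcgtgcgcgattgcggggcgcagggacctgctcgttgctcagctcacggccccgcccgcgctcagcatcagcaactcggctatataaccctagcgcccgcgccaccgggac

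The Dusp5 stretch holds AGGAAG on the opposite strand from position -192 to the start site, the Neurod1 stretch holds it on the gene's own strand from position -223, and the other 2 hold neither motif in these windows. Of the 1370 called genes, 1018 had such a stretch in the table. CCGGAA on either strand was in 15.1% of the stretches of genes called higher, 27% of those called lower and 25.3% of those of all 9727 tested genes with a stretch. AGGAAG was in 36.7%, 30% and 31.4% of them. The motifs can overlap each other, and over all 32851 stretches in the table, of the same length, 12% held CCGGAA and 29.5% held AGGAAG. These shares describe letters in the reference sequence, and binding was not measured.

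Most of the largest rises concerned genes with low values in control islets. Aqp3, a channel for water and glycerol, stood at 0.114, 0.204, 0.222 and 0.422 RPKM in controls and at 34.9, 38, 37 and 41.5 RPKM in Etv4/5 libraries. All 4 Etv4/5 libraries lay close together and far above every control. Aqp3 rose by 5.71 (SE 0.12, limma adjusted p = 1.6e-07) and was called in all 22 alternative analyses. Tm4sf20, a membrane protein of the tetraspanin-like L6 family, was at 0.0479 to 0.52 RPKM in controls and 8.21 to 11.4 RPKM in Etv4/5 libraries and rose by 3.85 (SE 0.20, adjusted p = 4.5e-05). Rnf152, a ubiquitin ligase of lysosomes, stood at 0.63, 0.872, 0.746 and 1.78 RPKM in controls and 11.3, 11.7, 11 and 12.8 RPKM in Etv4/5 libraries. It rose by 3.08 (SE 0.20, adjusted p = 0.00014). Gm17634, annotated as a long non-coding RNA, overlaps Rnf152 and rose by 2.34 (adjusted p = 1.6e-05). The strand setting of the counting is not given in the sources used here, so reads of such overlapping genes cannot be told apart.

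Tacr3, the receptor for neurokinin B, stood at 1.07, 0.943, 1.31 and 1.96 RPKM in controls and 7.5, 8.52, 7.61 and 11.6 RPKM in Etv4/5 libraries and rose by 2.37 (SE 0.19, limma adjusted p = 0.00041). Muc4, a mucin bound to the cell surface, stood at 1.85, 2.14, 1.12 and 5.14 RPKM in controls, where replicate 4 was the highest, and 13.6, 16.7, 15.9 and 22.2 RPKM in Etv4/5 libraries. It rose by 2.66 (SE 0.35, adjusted p = 0.0037), and with Xist-expressing libraries alone the adjusted p was 0.054. Muc20, a neighbouring mucin gene that overlaps Muc4, rose by 1.58 (adjusted p = 0.0094).

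Lama3, a laminin chain of basement membranes, was at 0.368 to 2.1 RPKM in controls and 5.81 to 13.6 RPKM in Etv4/5 libraries and rose by 2.78 (limma adjusted p = 0.0044), with control replicate 4 and Etv4/5 replicate 4 the highest of their groups. Bend5, which lies within Agbl4, rose by 2.55 (adjusted p = 0.00013), Gm833 by 2.64 (adjusted p = 2.1e-06) and Acot12, an acetyl-CoA thioesterase, by 2.31 (adjusted p = 3.3e-05). Cda, the cytidine deaminase of pyrimidine salvage, was uneven: it stood at 1.39, 0.771, 1.27 and 12.2 RPKM in controls and 13.6, 13.8, 12.4 and 24.4 RPKM in Etv4/5 libraries. Control replicate 4 nearly reached the lowest Etv4/5 library, and Cda only just passed the test with all libraries (log2 change 2.56, SE 0.67, adjusted p = 0.049); without control replicate 4 it rose by 3.30 (adjusted p = 0.00032).

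Slc2a2 and Mafa were among the 14 largest falls. Fbp2, the muscle form of fructose-1,6-bisphosphatase, stood at 2.83, 9.01, 6.95 and 12.3 RPKM in controls and 0.756, 1.02, 0.911 and 0.636 RPKM in Etv4/5 libraries. It fell by 2.49 (SE 0.37, limma adjusted p = 0.006), and the lowest control, replicate 1, was still above all Etv4/5 libraries. Cbs, cystathionine β-synthase of the transsulfuration pathway, stood at 53.1, 49.3, 46.3 and 39.4 RPKM in controls and 9.98, 14.5, 14.3 and 14.8 RPKM in Etv4/5 libraries and fell by 1.78 (SE 0.14, adjusted p = 0.00034). Atp4a, the catalytic subunit of the gastric proton pump, stood at 5.46, 5.2, 3.45 and 4.62 RPKM in controls and 0.516, 0.655, 0.777 and 0.716 RPKM in Etv4/5 libraries. It fell by 2.14 (adjusted p = 0.00014), as did its chromosomal neighbour 2200002J24Rik, which fell by 2.28 (adjusted p = 0.00032).

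Ovol2, a zinc-finger transcription factor of epithelia, fell by 1.84 from 6.97 ± 1.02 to 1.59 ± 0.347 RPKM (n = 4 each, limma adjusted p = 0.00035). Fmo1, a flavin-containing monooxygenase, fell by 1.97 (adjusted p = 0.001), Dapl1 by 1.82 (adjusted p = 0.00058) and Nptx2, a neuronal pentraxin, by 1.83 (adjusted p = 0.0073). Cox6a2, the heart and muscle form of a cytochrome c oxidase subunit, stood at 66.4, 79.6, 49.8 and 18.7 RPKM in controls and 14.2, 14.4, 15.8 and 14.4 RPKM in Etv4/5 libraries. Control replicate 4 was close to the Etv4/5 range, which was narrow. Cox6a2 fell by 1.65 (SE 0.40, adjusted p = 0.035), had a log2 change of -2.09 without control replicate 4 (adjusted p = 0.00016), and missed the threshold with Xist-expressing libraries alone (adjusted p = 0.24). Cox6a2 overlaps Itgad. Epb41l4a, Rbm20 and the small nucleolar RNA Snord65 completed the 14 largest falls, with adjusted p of 0.009, 0.019 and 0.048.

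**Figure D3:**
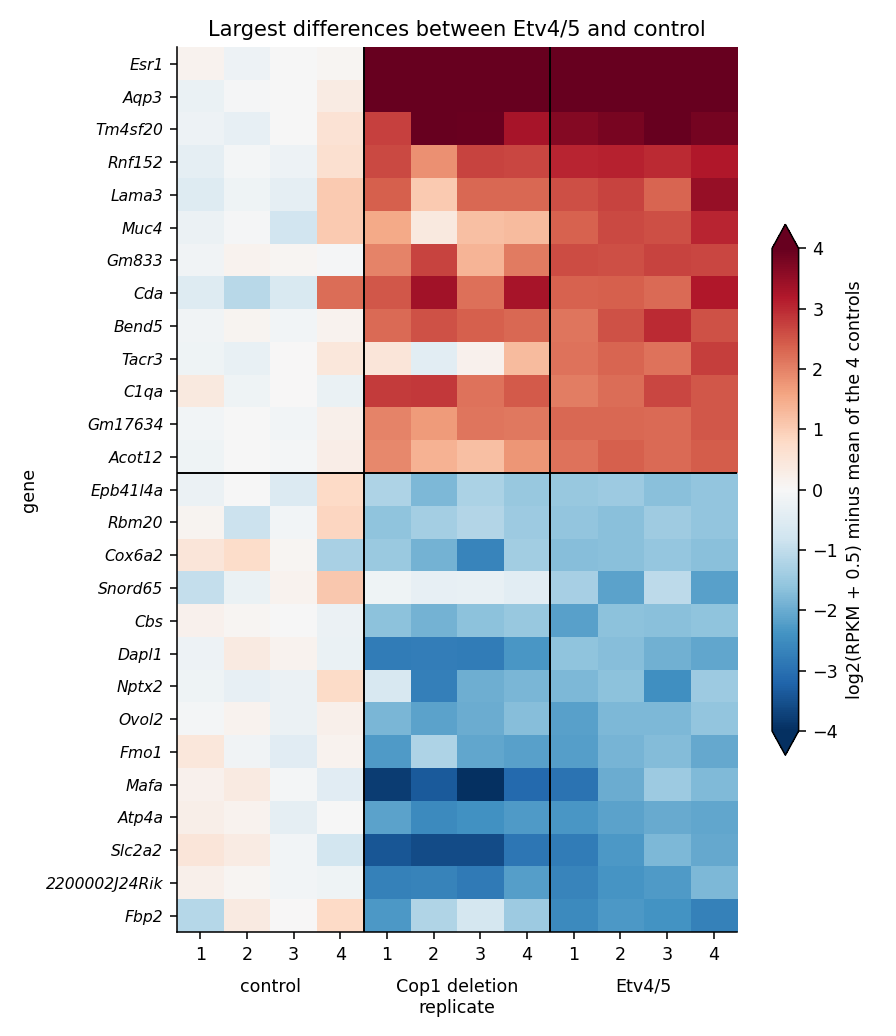
Log2(RPKM + 0.5) of 13 of the 14 largest rises and the 14 largest falls in each library of set 2, relative to the mean of the 4 controls; the colour scale ends at -4 and 4. Red is higher and blue lower. Control replicate 4 departs from the other controls in Cda, Lama3, Muc4, Cox6a2 and Snord65, and the Cop1 deletion libraries are shown for comparison only.

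Secretory granule genes moved in both directions. Sytl4, granuphilin, which docks insulin granules at the plasma membrane, stood at 109, 99.5, 79.3 and 71.4 RPKM in controls and 30.9, 39.4, 43.1 and 42.8 RPKM in Etv4/5 libraries. The groups were well separated, and Sytl4 fell by 1.18 (SE 0.16, limma adjusted p = 0.0039). Its call was lost with Xist-expressing libraries alone. Chgb, the granule protein chromogranin B, stood at 1587, 1338, 1508 and 1384 RPKM in controls and 1794, 1887, 1819 and 1976 RPKM in Etv4/5 libraries and rose by 0.36 (SE 0.068, adjusted p = 0.014). Pam, which amidates peptide hormones, rose by 0.57 (adjusted p = 0.0045), and Cltrn, the X-linked gene of collectrin, by 0.70 from 443 ± 61.8 to 716 ± 51.9 RPKM (adjusted p = 0.0063). Scg5, a chaperone of the convertase PCSK2, and Ica1, an islet autoantigen, passed the test narrowly (adjusted p = 0.046 and 0.045). Vamp2, the vesicle SNARE of insulin granules, fell by 0.24 (adjusted p = 0.01). Of 21 granule and hormone-processing genes tested, 5 were called higher and 4 lower, with a median of 0.13.

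On the exocytosis list, 3 of 40 tested were called higher and 4 lower, together 17.5% of the list against 10.3% of all genes. Cadps2, which primes dense-core vesicles, stood at 2.45, 2.62, 2.62 and 2.8 RPKM in controls and 5.47, 4.98, 4.55 and 4.37 RPKM in Etv4/5 libraries and rose by 0.77 (limma adjusted p = 0.0012). Mlph, a linker between RAB27A and myosin, stood at 3.66, 3.71, 2.91 and 5.17 RPKM in controls and 1.6, 1.47, 1.14 and 1.29 RPKM in Etv4/5 libraries and fell by 1.20 (adjusted p = 0.0034). Rab3b, a GTPase of vesicles, and Stxbp5, the syntaxin-binding tomosyn, rose by 0.66 and 0.30, and Nsf, the ATPase that takes SNARE complexes apart, fell by 0.23 (adjusted p = 0.029, 0.023 and 0.024).

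Among ion channels of stimulus-secretion coupling, 4 of 30 tested were called higher and 1 lower. Scn3a, a voltage-gated sodium channel, stood at 2.19, 2.23, 2.46 and 4.23 RPKM in controls and 14.4, 13, 16.3 and 12.6 RPKM in Etv4/5 libraries. It rose by 2.19 (SE 0.18, limma adjusted p = 0.00046), with every Etv4/5 library above every control. Its relative Scn9a rose by 0.54 (adjusted p = 0.0081). Abcc8, the sulfonylurea receptor of the KATP channel, stood at 210.0 ± 10.9 RPKM in controls and 253 ± 14.6 RPKM in Etv4/5 libraries (log2 change 0.27, adjusted p = 0.024), a call that was lost with equal total RPKM (adjusted p = 0.085). Cacna1a, a voltage-gated calcium channel, rose by 0.29 (adjusted p = 0.036), and its call held in only 7 of 22 alternatives (adjusted p = 0.21 with equal total RPKM and 0.3 with Xist-expressing libraries alone). Kcnk16, the islet potassium channel TALK-1, fell by 0.49 from 91.7 ± 10.6 to 65.1 ± 5.81 RPKM (adjusted p = 0.019).

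Calcium stores and cAMP signalling genes also divided. Atp2a2, the pump SERCA2 that fills the endoplasmic reticulum with calcium, stood at 441, 458, 366 and 289 RPKM in controls and 223, 229.8, 233 and 241 RPKM in Etv4/5 libraries. It fell by 0.72 (SE 0.14, limma adjusted p = 0.015). Itpr3, a calcium release channel, stood at 12.2, 13.6, 12.1 and 12.5 RPKM in controls and 20.9, 23.7, 23.6 and 27.7 RPKM in Etv4/5 libraries and rose by 0.90 (SE 0.084, adjusted p = 0.00074). Atp2b1, a calcium pump of the plasma membrane, rose by 0.54 (adjusted p = 0.0018). On the calcium list 4 of 20 tested were called higher and 2 lower. On the cAMP list 5 of 29 were called higher and 2 lower. Gna14, a G-protein subunit, rose by 1.28 from 0.894 ± 0.155 to 2.9 ± 0.551 RPKM (adjusted p = 0.0016), Prkar1a, a regulatory subunit of protein kinase A, by 0.62 (adjusted p = 0.0061), and Rgs16, a regulator of G-protein signalling, by 0.49 (adjusted p = 0.0034). Crem, a cAMP-responsive transcription factor, and Pde10a, a phosphodiesterase, fell by 0.33 and 0.38 (adjusted p = 0.024 and 0.032).

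Of 21 incretin, nutrient and inhibitory receptors tested, 4 were called higher and 0 lower (6 and 2 without control replicate 4), and Esr1, the transgene reading, is one of the 4. Ffar2, a receptor for short-chain fatty acids, stood at 10.6, 10.3, 9.61 and 9.64 RPKM in controls and 17.6, 17.9, 20.4 and 18.3 RPKM in Etv4/5 libraries. It rose by 0.85 (SE 0.060, limma adjusted p = 0.00018) with no overlap. Its neighbour Ffar3 rose by 0.45 (adjusted p = 0.0081), and Tacr3 was described above.

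The list of ERK feedback genes, mostly inhibitors and phosphatases of the pathway but also FGF receptors and Fgf2, which activate it, held 4 calls higher and 3 lower among 17 tested. Spry2, a Sprouty inhibitor of receptor signalling, stood at 8.62, 9.77, 10.4 and 8.61 RPKM in controls and 18, 16.4, 17.2 and 19.2 RPKM in Etv4/5 libraries and rose by 0.89 (SE 0.077, limma adjusted p = 0.00053). Dusp5, a nuclear phosphatase of ERK, stood at 15.3, 17.4, 20.2 and 24.3 RPKM in controls and 29.7, 30.6, 33.9 and 32.4 RPKM in Etv4/5 libraries and rose by 0.72 (SE 0.13, adjusted p = 0.013). No Etv4/5 library of either gene overlapped the controls. Dusp5 missed the threshold with Xist-expressing libraries alone (adjusted p = 0.14). Spry1 and Dusp7 rose by 0.43 and 0.34, calls that were lost with equal total RPKM (adjusted p = 0.088 and 0.15). Spry4, another Sprouty, Fgfr1, an FGF receptor, and Dusp10, a phosphatase of JNK and p38, fell by 0.39, 0.29 and 0.53 (adjusted p = 0.015, 0.034 and 0.028).

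Of 19 ETS factors tested, Etv5 was the sole call lower. Elk3, a ternary complex factor, was the sole call higher (log2 change 0.51, limma adjusted p = 0.0011, 11.7 ± 0.501 and 16.9 ± 0.885 RPKM). The share called was 10.5% on this list and 11.1% on the list of PEA3 targets, both near the 10.3% of all genes tested. Of 18 genes that other tissues use as PEA3 targets, Bcl2l1, the survival factor BCL-XL, rose by 0.35 (adjusted p = 0.0071, but 0.098 with equal total RPKM, 0.059 with sex as a term and 0.11 with Xist-expressing libraries alone) and Cdkn1a, the cell-cycle inhibitor p21, fell by 0.59 (adjusted p = 0.024). Among AP-1, immediate early genes and other COP1 substrates, 1 of 27 tested was called higher and 3 lower, with a median of -0.30. Trib1, a pseudokinase that brings COP1 to its substrate C/EBPα, stood at 24.6, 28.9, 31.6 and 25.1 RPKM in controls and 50.7, 44.1, 41.3 and 48.4 RPKM in Etv4/5 libraries and rose by 0.74 (SE 0.10, adjusted p = 0.0037). Myc, Atf3 and Nr4a1, transcription factors induced early after stimulation, fell by 0.59, 0.58 and 0.77 (adjusted p = 0.0031, 0.02 and 0.041).

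The ligase partners of COP1 and the COP9 signalosome, which regulates cullin ligases, gave 3 calls lower among 16 genes: Cop1 itself, Cops5 and Cops2. Cop1 entered the test through the controls alone, so it could only be called lower. Cops5, the catalytic subunit, stood at 55.5, 57.9, 56.1 and 55 RPKM in controls and 45.3, 46.2, 44.9 and 45.8 RPKM in Etv4/5 libraries. This difference of -0.30 was small beside the other changes yet wider than the narrow ranges of both groups (SE 0.036, limma adjusted p = 0.0024). Of 21 p53 target genes tested, Ccng1 and Plk2 were called higher, and Gadd45a and Cdkn1a lower. Gadd45a stood at 34.5 ± 1.22 and 24.8 ± 1.59 RPKM (log2 change -0.47, adjusted p = 0.0022). Bik, which promotes apoptosis through a BH3 domain, stood at 3.39, 3.41, 3.52 and 2.95 RPKM in controls and 8.07, 10.2, 10.3 and 10.9 RPKM in Etv4/5 libraries. It rose by 1.44 (SE 0.10, adjusted p = 0.00017), and no library overlapped. On the apoptosis list 2 of 22 were called higher (Bik and Bcl2l1) and 1 lower, Birc3 (adjusted p = 0.018). Among 21 cell-cycle genes tested, the inhibitor Cdkn2b rose by 0.79 (adjusted p = 0.0044) and Cdkn1a fell.

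Progenitor and dedifferentiation genes gave 2 calls higher and 1 lower among 13 tested. Aldh1a3, a retinaldehyde dehydrogenase raised in failing β cells, stood at 0.935, 1.17, 2.58 and 1.65 RPKM in controls and 8.0, 4.51, 9.35 and 4.29 RPKM in Etv4/5 libraries. The 4 Etv4/5 libraries fell into a lower and a higher pair, the higher pair being replicates 1 and 3, those with Y-linked RNA, and all were above the controls. Aldh1a3 rose by 1.74 (SE 0.31, limma adjusted p = 0.012); with Xist-expressing libraries alone the change was 1.29 (adjusted p = 0.12). Gast, the gastrin gene of fetal islets, was at 0.398 to 0.738 RPKM in controls and 1.8 to 2.69 RPKM in Etv4/5 libraries (log2 change 1.29, limma adjusted p = 0.0019). Gast entered the test through the Etv4/5 libraries alone, so it could only be called higher. Of 18 genes that mature β cells normally silence, 1 was called, Lyst, which was higher (adjusted p = 0.024).

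Mitochondrial genes were called in equal numbers, 3 higher and 3 lower of 40. Slc25a13, the aspartate-glutamate carrier, rose by 0.49, Ucp2, an uncoupling protein, by 0.36, and Gpd1, of the glycerol phosphate shuttle, by 0.33 (limma adjusted p = 0.0072, 0.03 and 0.033). Cox6a2 fell as described, Me1, malic enzyme, fell by 0.53, and Slc25a22, a glutamate carrier, by 0.39 (adjusted p = 0.023 and 0.049). Fatty acid and cholesterol synthesis gave 2 calls lower of 26, Me1 and Sqle (squalene epoxidase), and the list of lipid handling 1 each way, Dgat2, of triglyceride synthesis, higher and Lpl, lipoprotein lipase, lower (adjusted p = 0.019 and 0.0047). Without control replicate 4 the synthesis list turned to 6 calls higher and 2 lower, and its median from -0.14 to 0.08. Of 27 genes of endoplasmic reticulum folding and the unfolded protein response, 0 were called higher and 3 lower, and without control replicate 4 the calls were 5 higher and 7 lower. Ero1a, which oxidises folding proteins, stood at 70.5 ± 10.1 and 43 ± 2.51 RPKM and fell by 0.70 (adjusted p = 0.0053), Herpud1, of protein disposal from the reticulum, fell by 0.35 (adjusted p = 0.0053) and Wfs1, wolframin, by 0.17 (adjusted p = 0.023). On the amino acid response list, Cbs was the sole call among 24, and the median was -0.34; without control replicate 4, 20 of the 24 were called lower. Hspd1 was the sole call among 17 heat shock genes (adjusted p = 0.045), and 0 of 25 interferon response genes were called by limma (2 had an unadjusted p below 0.05).

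Imprinted genes gave 1 call higher and 2 lower of 20. Nnat, a membrane proteolipid gene within an intron of Blcap, stood at 6.04, 5.91, 6.25 and 7.28 RPKM in controls and 2.65, 2.16, 2.14 and 2.59 RPKM in Etv4/5 libraries and fell by 1.25 (SE 0.093, limma adjusted p = 0.00024). Igf2, the fetal growth factor, fell by 0.72 (adjusted p = 0.0048), and Ndn, necdin, rose by 0.66 from 38.6 ± 3.9 to 60.9 ± 1.56 RPKM (adjusted p = 0.0014). Among claudins, mucins and other epithelial membrane genes 5 of 25 were called higher (Tm4sf20, Muc4, Muc20, Cldn1 and Cdh2) and 3 lower (Cgn, Cldn3 and Tjp3). Tm4sf20 entered the test through the Etv4/5 libraries alone, so it could only be called higher. Muc20 and Cldn1 were also low in controls, with means of 0.627 and 0.503 RPKM. The adherens junction gene Cdh2, N-cadherin, stood at 18.3 ± 2.02 and 25.2 ± 1.19 RPKM (adjusted p = 0.013), and the tight junction gene Cgn, cingulin, at 9.41 ± 1.16 and 6.78 ± 0.298 RPKM (adjusted p = 0.017).

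The share of tested members called was 42.9% for granule genes, 41.2% for ERK feedback, 30% for calcium and 24.1% for cAMP genes. It was 20.8% for glucose uptake and glycolysis, 19.4% for β-cell identity, 19% for p53 targets and 15% for mitochondrial and for imprinted genes. Epithelial membrane genes had 32%, progenitor genes 23.1%, receptors 19%, COP1 partners 18.8% and ion channels 16.7%. AP-1 and immediate early genes had 14.8%, apoptosis 13.6% and the unfolded protein response 11.1%. Lower were cell cycle at 9.52%, lipid handling at 9.09%, fatty acid and cholesterol synthesis at 7.69% and heat shock genes at 5.88%. Genes silenced in β cells had 5.56%, the amino acid response 4.17% and interferon response genes 0%. Of all genes tested, 10.3% were called. How many members passed the test depended on the libraries used. Without control replicate 4, 25 of the 28 gene lists had over 1.5 times more calls and 0 had over 1.5 times fewer. Without the Y-positive Etv4/5 libraries, 22 of the 28 had over 1.5 times fewer calls and 0 had over 1.5 times more. Of the 114 called genes whose values the text gives, 69 lost their call in that setting and 45 kept it. The exocytosis, ion channel, calcium, cAMP and ERK feedback lists kept 0 lower calls, so Sytl4, Mlph, Vamp2, Nsf, Kcnk16 and Atp2a2 were among those lost. The mitochondrial, unfolded protein response and COP1 partner lists kept 0 calls either way, Ero1a, Herpud1 and Cops5 included. With equal total RPKM the calls of Cda, Dusp10, Gpd1, Ica1, Nr4a1, Scg5, Slc25a22, Snord65 and Ucp2 were lost as well. Aqp3 was the sole call among the 4 water and glycerol channels tested, a list too short to be drawn in the plot of calls by list. It entered the test through the Etv4/5 libraries alone, so it could only be called higher.

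**Figure D4:**
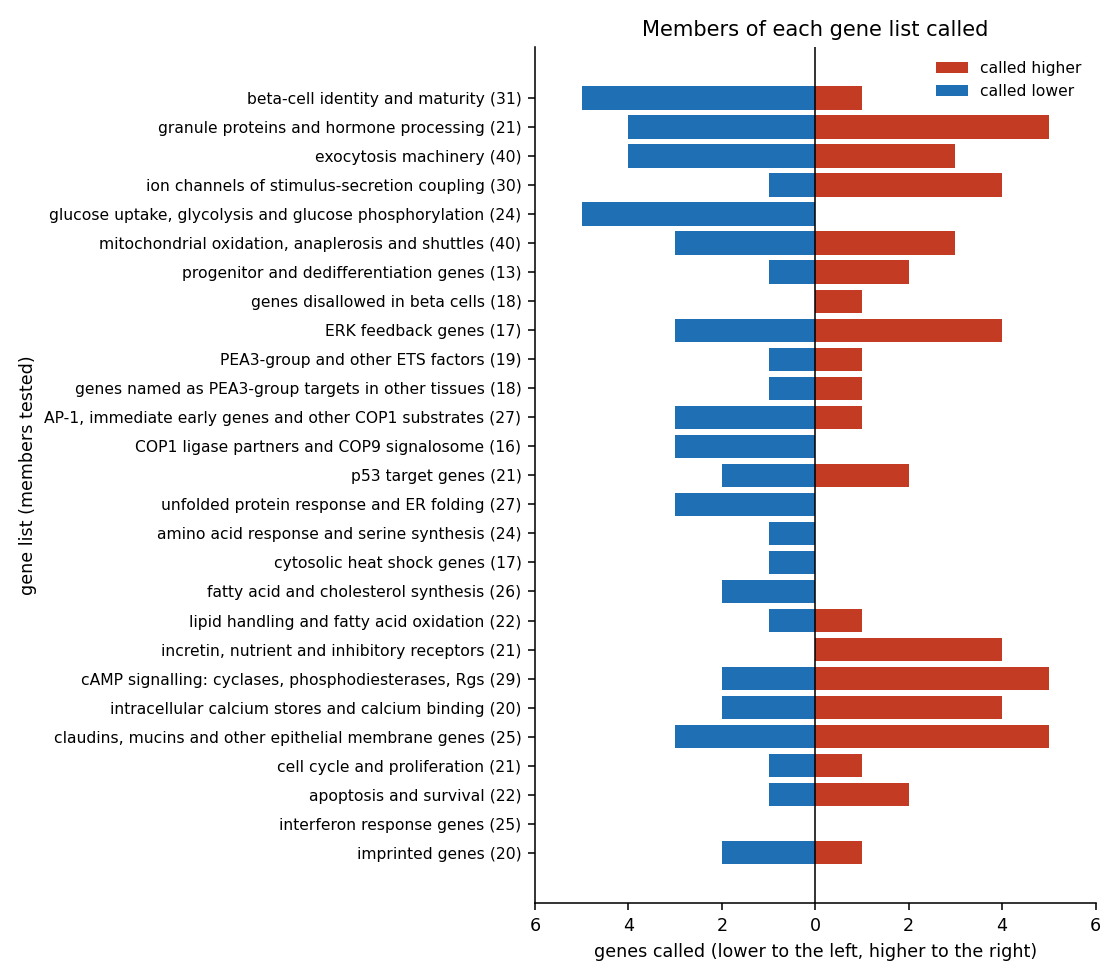
Number of members called higher (red, to the right) and lower (blue, to the left) on the 27 gene lists with at least 10 members tested; the number tested is in parentheses. Glucose uptake and glycolysis genes gave 0 calls higher and 5 lower with all 8 libraries (2 higher and 5 lower without control replicate 4), granule genes on both sides, and interferon response genes gave 0 calls. Of all genes tested, 5.9% were called higher and 4.42% lower.

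Hormones of the other islet cells differed too. Pyy, peptide YY, stood at 1635, 1985, 2082 and 2136 RPKM in controls and 3513, 3848, 3232 and 3913 RPKM in Etv4/5 libraries and rose by 0.89 (SE 0.10, limma adjusted p = 0.002) with no overlap. Sst, the somatostatin of δ cells, stood at 4074, 3821, 5456 and 4055 RPKM in controls and 2183, 2973, 2229 and 2791 RPKM in Etv4/5 libraries and fell by 0.77 (SE 0.14, adjusted p = 0.015). That call was lost with Xist-expressing libraries alone (adjusted p = 0.15). Summed δ-cell markers were 3990 to 5656 RPKM in controls and 2399 to 3207 in Etv4/5 libraries, without overlap. Rbp4, which δ cells and other cells express, rose by 0.48 (adjusted p = 0.023), so the 2 called δ-cell markers of 5 tested went opposite ways. Npy passed the test narrowly on the lower side (adjusted p = 0.047). Gcg and Ppy, chosen after their values were seen, stood at 22796 ± 5638 and 29084 ± 4275 RPKM and at 3179 ± 1033 and 3962 ± 206 RPKM, and neither was called. Summed PP-cell markers were 4163 to 6542 RPKM in controls and 7136 to 8200 in Etv4/5 libraries. Ttr, transthyretin, which α cells hold at high level, rose by 0.85 from 418 ± 38.1 to 769 ± 176 RPKM (adjusted p = 0.014) and was the sole call among 12 α-cell markers.

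Markers of other cell types were read in the same way. Summed acinar markers ranged from 1078 to 15316 RPKM in controls and from 1354 to 5627 in Etv4/5 libraries, and 0 of 25 acinar genes tested were called by limma (0 had an unadjusted p below 0.05). Summed endothelial markers ranged from 204 to 357 RPKM in controls and from 271 to 318 in Etv4/5 libraries, and 0 of 14 were called by limma (2 had an unadjusted p below 0.05); without control replicate 4, 10 of 14 were called higher. Ductal markers gave 3 calls higher of 11. Krt7, a keratin of duct epithelium that these islets also held at high level, stood at 276, 259, 248 and 229 RPKM in controls and 532, 508, 531 and 521 RPKM in Etv4/5 libraries. It rose by 1.05 (SE 0.061, limma adjusted p = 8.5e-05), and Epcam, an epithelial adhesion molecule, by 0.74 from 105 ± 4.36 to 177 ± 15.7 RPKM (adjusted p = 0.00072). The median ductal marker nevertheless stood at -0.15, and summed ductal markers overlapped, at 1493 to 1926 RPKM in controls and 1480 to 3062 in Etv4/5 libraries. Whether duct cells contribute to these rises was not tested.

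C1qa, the A chain of the complement protein C1q that macrophages make, stood at 21.1, 14.1, 16.1 and 13.1 RPKM in controls and 67.6, 77.1, 103 and 90.6 RPKM in Etv4/5 libraries. It rose by 2.36 (SE 0.17, limma adjusted p = 0.00024) and was the sole call among 13 immune markers tested. C1qb and C1qc, the other 2 chains, neighbours of C1qa and chosen after their values were seen, stood at 7.29 ± 2.52 and 8.28 ± 0.725 RPKM and at 5.03 ± 1.59 and 5.54 ± 0.33 RPKM, with log2 differences of 0.23 and 0.18 that were not called (adjusted p = 0.56 and 0.63). Summed immune markers, C1qa included, were 121 to 229 RPKM in controls and 249 to 311 in Etv4/5 libraries. C1qa alone made up 13.1 to 21.1 RPKM of the control sums and 67.6 to 103 RPKM of the Etv4/5 sums. With C1qa taken out of each sum, the ranges of the groups overlap. Ptprc, the marker of white blood cells, and Adgre1, which encodes the macrophage protein F4/80, both chosen after their values were seen, did not reach the minimum level for the fit, with means of 0.672 and 0.728 RPKM (Ptprc) and 0.805 and 0.747 RPKM (Adgre1) in control and Etv4/5 libraries. Summed stromal and pericyte markers were 159 to 331 RPKM in controls and 331 to 371 in Etv4/5 libraries, and Mgp, a matrix protein, was the sole call among 15, higher in Etv4/5 libraries (limma adjusted p = 0.047). Of 6 Schwann cell and neuron markers tested, Elavl4 was called lower. None of the 6 adipocyte markers and none of the 6 red cell and lymph node markers reached the minimum level.

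The Etv4/5 libraries were next set beside the 4 Cop1 deletion libraries of the same set (Cop1 fl/fl with Pdx1.CreERT2), which differ from them by the Etv4 and Etv5 alleles. This difference was tested in a fit of all 22 placed libraries, where 226 of 13276 genes were called (1.7%), 93 higher and 133 lower in Etv4/5 libraries. Cop1 deletion replicates 2 and 3 stood apart from the other set 2 libraries (first principal component 53.5 and 29.1, against -25.5 to 6.9), carried Y-linked RNA, and had summed immune markers of 749 and 439 RPKM against 121 to 311 in the other 10. Without these 2 libraries 49 genes were called, and without all Y-positive libraries of the fit 0 were called by limma (957 had an unadjusted p below 0.05). Comparisons with control below share their controls and are given side by side as values only.

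Of the 1370 genes called against control, 1315 were not called in the test against Cop1 deletion, and 55 were (4%, against 1.7% of all genes tested). For 28 of these 55 the difference from Cop1 deletion had the opposite sign to that from control, and for 27 the same sign. Both comparisons use the same 4 Etv4/5 libraries, so this overlap and these signs are not independent evidence. Several genes lay between control and Cop1 deletion. Slc2a2 averaged 64 RPKM in controls, 5.58 in Cop1 deletion (5.21, 4.61, 4.66 and 7.82) and 12.9 in Etv4/5 libraries, and was 1.13 higher in the last on the log2 scale (SE 0.24, limma adjusted p = 0.025). Mafa averaged 145, 11.5 and 36.5 RPKM in the same order, with 9.77, 13.4, 6.63 and 16.1 RPKM in Cop1 deletion replicates 1 to 4. It was 1.60 higher in Etv4/5 than in Cop1 deletion libraries (SE 0.30, adjusted p = 0.02), and no library of the 2 groups overlapped. Sytl4 averaged 23.9 RPKM in Cop1 deletion and was 0.72 higher in Etv4/5 libraries (adjusted p = 0.033). On leaving out Cop1 deletion replicates 2 and 3, the differences were 0.92 for Slc2a2 and 1.41 for Mafa, and the calls were lost (adjusted p = 0.2 and 0.1).

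On the other side, Dusp5 averaged 19.3 RPKM in controls, 58.5 in Cop1 deletion (68.7, 58.1, 46.4 and 60.9) and 31.6 in Etv4/5 libraries. It was -0.87 on the log2 scale relative to Cop1 deletion (SE 0.12, limma adjusted p = 0.0037) and stayed called without Cop1 deletion replicates 2 and 3 (-1.02, adjusted p = 0.0022). Chgb averaged 1454, 3342 and 1869 RPKM in the same order, a difference from Cop1 deletion of -0.82 (adjusted p = 0.0037; 0.03 without those 2 libraries). Mpp2, a membrane scaffold of the MAGUK family, averaged 10.4, 23.3 and 14.8 RPKM (difference -0.63, adjusted p = 0.0037), Ctsl, cathepsin L, 227, 516 and 342 RPKM (difference -0.58, adjusted p = 0.011) and Mat1a, a methionine adenosyltransferase, 28.5, 17.1 and 22.2 RPKM (difference 0.37, adjusted p = 0.008).

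For other genes the Etv4/5 libraries stood apart from both groups. Tacr3 averaged 1.32 RPKM in controls, 2.05 in Cop1 deletion (2.02, 0.83, 1.53 and 3.81) and 8.82 in Etv4/5 libraries. It was 1.98 higher in Etv4/5 than in Cop1 deletion libraries (SE 0.29, limma adjusted p = 0.0044) and stayed called without Cop1 deletion replicates 2 and 3 (adjusted p = 0.04). Muc4 averaged 2.56, 5.55 and 17.1 RPKM in the same order (difference from Cop1 deletion 1.57, adjusted p = 0.021) and Ttr 418, 379.7 and 769 RPKM (difference 1.06, adjusted p = 0.024). The other large differences on this side, Msln, Wdfy1, Gm15638, Th and Olfml2a, were not called against control.

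The 10 largest differences on the lower side (Lrg1, Crybb3, Mgarp, Clu, Adm, Slc16a3, Shisa4, Tgif1 and 2 genes without a symbol) included none that was called against control. Lrg1, a glycoprotein of inflammation, stood at 4.31, 4.29, 6.65 and 26.7 RPKM in controls, 22.1, 108, 108 and 18.9 RPKM in Cop1 deletion and 11.4, 7.72, 10.8 and 4.48 RPKM in Etv4/5 libraries (difference -2.47, limma adjusted p = 0.033; 0.35 without Cop1 deletion replicates 2 and 3). The spread among Cop1 deletion libraries was wide. For some genes that changed strongly against control, the difference from Cop1 deletion was not called. Aqp3 averaged 31.7 RPKM in Cop1 deletion and 37.8 in Etv4/5 libraries (difference 0.25, SE 0.14, limma adjusted p = 0.27). Every Etv4/5 library was nevertheless above every Cop1 deletion library for Aqp3. Tm4sf20 averaged 8.88 and 9.47 RPKM (difference 0.23, SE 0.29, adjusted p = 0.65), and Cbs 14.3 and 13.4 RPKM (difference -0.11, SE 0.13, adjusted p = 0.62).

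**Figure D5:**
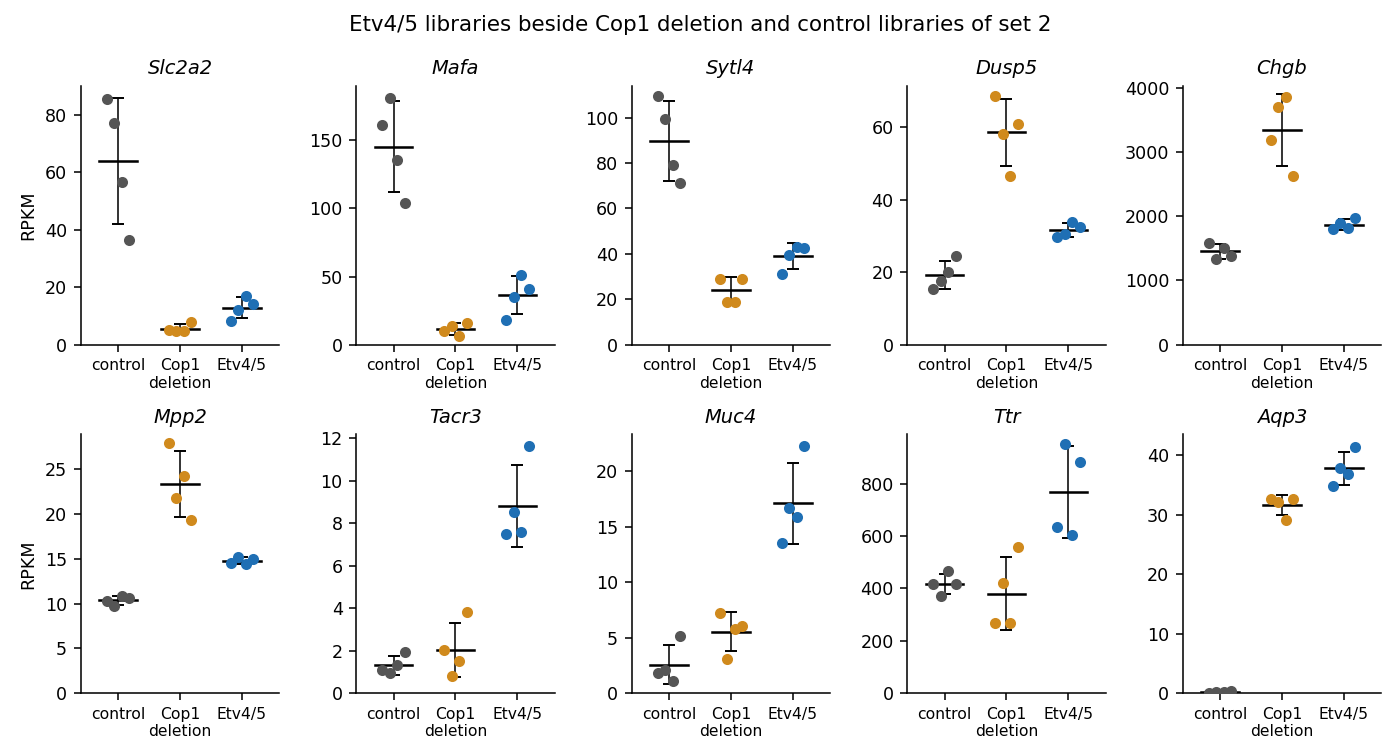
RPKM of 10 genes in the control, Cop1 deletion and Etv4/5 libraries of set 2, each axis starting at 0. Points are libraries, bars are means and error bars are 1 SD. Etv4/5 libraries lie between the other groups for Slc2a2, Mafa, Sytl4, Dusp5, Chgb and Mpp2, above both for Tacr3, Muc4 and Ttr, and at 34.9 to 41.5 RPKM near the Cop1 deletion libraries (29.1 to 32.7 RPKM) for Aqp3.

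The effect was last compared with that of the other Etv genotype in set 1, where Etv1 was floxed as well and both Etv4 alleles were knocked out (Etv1fl/fl and Etv4ko/ko, beside floxed Cop1 and Etv5 and the same Cre). The 2 comparisons share no library. Set 1 had 4 such libraries and 3 controls, and control replicate 2 of set 1 held Esr1 at 99.1 RPKM, against 0.169 and 0.191 in the other 2, so the library labelled control there reads the transgene. The effects of the sets differed for 155 of 13276 genes (1.17%), 85 higher and 70 lower in set 2; without that control 364 genes were called. The set 1 effect had the sign of the set 2 effect for 956 of those 1370 genes (69.8%), against 56.8% of all genes tested. In set 1, 171 of 13276 genes were called in the fit of all 22 libraries, with the control that holds Esr1 kept. The set 2 calls come from the fit of 8 libraries. In both sets 78 genes were called in the same direction, 65 of them higher. This is 5.69% of the set 2 calls and 45.6% of the set 1 calls, whereas 10.3% of all genes tested were called in set 2. A further 8 genes were called in both in opposite directions.

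Aqp3 rose in both sets, by 5.71 in set 2 and 5.02 in set 1 (limma adjusted p = 3.7e-14 in set 1). The difference of 0.68 between them was not called (limma adjusted p = 0.11). Rnf152 rose by 3.08 and 3.49, Acot12 by 2.31 and 2.48 and Bik by 1.44 and 1.44, and Nnat fell by 1.25 in set 2 with a change of -1.36 in set 1, all called in both sets. Slc2a2 did differ: it stood at 272, 189 and 247 RPKM in set 1 controls and 169.7, 206, 148 and 179 RPKM in the set 1 Etv1/4/5 libraries, a change of -0.42 that was not called there (adjusted p = 0.71). The difference between the effects was -1.82 on the log2 scale (SE 0.36, limma adjusted p = 0.015). Control levels of Slc2a2 themselves differed between the sets, and the set 2 control mean of 64 RPKM was below each set 1 control. For Mafa the changes were -2.05 and -0.72, and their difference of -1.33 was not called (SE 0.44, adjusted p = 0.15).

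C1qa rose in set 2 and stood at 38.5, 34.4 and 41.1 RPKM in set 1 controls and 34.3, 37.2, 35.8 and 36.8 RPKM in set 1 Etv1/4/5 libraries, a difference between the effects of 2.44 (SE 0.23, limma adjusted p = 3.3e-05). Control levels of C1qa themselves were 13.1 to 21.1 RPKM in set 2 and 34.4 to 41.1 RPKM in set 1. Lama3 (2.68, adjusted p = 0.0061), Muc4 (2.04, adjusted p = 0.027), Csn3, a milk casein (1.84, adjusted p = 0.0055) and Cda (3.01, adjusted p = 0.047) also had a higher effect in set 2. On the lower side stood Ctrc, an acinar chymotrypsin (-6.32, adjusted p = 0.012), Padi2, a protein arginine deiminase (-2.39, adjusted p = 0.0018), 2200002J24Rik (-2.21, adjusted p = 0.0018), Atp4a (-2.03, adjusted p = 0.014) and Fmo1 (-1.87, adjusted p = 0.035). Ctrc stood at 3.87, 2.99 and 0.975 RPKM in set 1 controls and 89.6, 23.4, 189.6 and 82.7 RPKM in set 1 Etv1/4/5 libraries, and in set 2 at 93.7, 26.9, 56.4 and 6.49 RPKM in controls and 8.65, 12.9, 5.21 and 18.6 RPKM in Etv4/5 libraries. The Etv1 and Etv4 alleles differ along with the set, so genotype and set cannot be told apart in these differences. Sex is not balanced across them either. All set 1 Etv1/4/5 libraries carried Y-linked RNA, and in set 2 only Etv4/5 replicates 1 and 3 did, with Xist in every control. The part of acinar remains in Ctrc was not tested.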

How the data were processed

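RNA from cultured, handpicked mouse islets was sequenced, and the authors deposited a table of RPKM values (28059 genes, 24 libraries). Build mm9 comes from the submitters' processing notes; aligner, counter, annotation and strand setting were not given in the sources used here. 22 columns were placed by their labels, and 2 columns of per-sample values were not placed and not used. Gene IDs were matched to GRCm38.p6 symbols for 24998 genes, and 943 tested genes had none. Libraries were compared on log2(RPKM + 0.5) with limma 3.58.1 (R 4.3.3, trend and robust estimation), on genes reaching 1 RPKM in 4 or more of the 8 libraries, with Benjamini-Hochberg adjustment and a threshold of 0.05. A fold change on this scale understates that of low genes. The comparison with control used 8 libraries, and those with Cop1 deletion and set 1 used all 22 in 6 groups on the same genes. Etv4, below the filter, was tested by exact permutation. Whole-number counts are not in the table, so absolute depth is unknown; relative depth came from the steps of values up to 0.3 RPKM. A library counts as Y-positive when its summed Y-linked genes exceed 1 RPKM.

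Genes were named by rule: the targeted genes and Esr1; the 14 largest rises and falls among called genes with a symbol, no overlap between groups and a mean of at least 1 RPKM in a group; up to 5 called members of a list in each direction, by adjusted p, or the 3 with the highest mean where none was called; the 10 largest differences from Cop1 deletion in each direction, and the 6 smallest adjusted p among those also called against control; and the 6 largest differences between sets in each direction. The text describes some of them, some are not reported here, and other genes are marked as chosen after their values were seen. The comparison, the gene lists and the marker lists were chosen with earlier results of these data known. The fit was tested on simulated data. Alternatives changed the pseudocount, filter, scaling, weights, robust estimation, libraries, sex term, fit and minimum fold. The alternative without Cop1 deletion replicates 2 and 3 was chosen after seeing the data. Text and figures used Python 3.11.15, pandas 2.3.3, numpy 2.4.6 and matplotlib 3.10.9. Sequences are RefSeq, GRCm38.p6, and no coordinates of the files' build are given.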

Additional observations from a re-analysis of the deposited data

Results flagged for a closer look

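Among the named genes and the library measures, 28 groups of 4 libraries had an extreme value far from the other 3, by Dixon's ratio of gap to range at its 95% critical value, and 10 of these extremes were control replicate 4. Chance alone sets about 1 in 20 groups apart in this way. Over named genes, 248 groups were looked at and 21 had such a value. Control replicate 4 was the highest control in RPKM for Cda (12.2), Dusp10 (29.2), Lama3 (2.1), Lrg1 (26.7), Nptx2 (89.8), Scn3a (4.23) and Slc25a22 (30.9), and the lowest for Neurod1 (80.9). It was also the highest in summed interferon response genes (1815 RPKM) and on the first principal component (47.6).

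In other controls, replicate 3 was the lowest in Dgat2 (2.78 RPKM) and the highest in Sst (5456 RPKM). Etv4/5 replicate 1 was the lowest of its group in Cbs (9.98 RPKM), Esr1 (72), total RPKM (607830) and summed fatty acid and cholesterol synthesis genes (1197), and the highest in Cdkn1a (62), Etv4 (1.2) and summed ductal markers (3062). Etv4/5 replicate 2 was the highest in Dusp10 (15.6 RPKM) and the lowest in Slc25a22 (17.7). Etv4/5 replicate 3 was the highest in Cox6a2 (15.8 RPKM), Ins2 (153409), the insulin share of RPKM (28.9%) and summed endothelial markers (318). Etv4/5 replicate 4 was the highest in Cda (24.4 RPKM), Gm17634 (3.47) and Npy (30.1).

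The effects against control differed between the Etv4/5 libraries of set 2 and the Etv1/4/5 libraries of set 1, by limma over all genes, for the genes below; values are set 2 minus set 1 on the log2 scale. The difference was positive for C1qa (2.44), Cda (3.01), Csn3 (1.84), Lama3 (2.68) and Muc4 (2.04). It was negative for 2200002J24Rik (-2.21), Atp4a (-2.03), Ctrc (-6.32), Fmo1 (-1.87), Padi2 (-2.39) and Slc2a2 (-1.82). Without the set 1 control that holds Esr1 reads, the difference was 2.51 for C1qa (adjusted p = 0.00015, limma) and -1.66 for Slc2a2 (adjusted p = 0.028).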

How the results depend on the processing

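The 114 called genes whose values the text gives all kept their direction under the 22 alternatives that gave them a value. Where the groups do not overlap, leaving out libraries cannot turn a direction. Of the 114, 12 stayed called under every alternative. A total of 40, which include those 12, stayed called under all but the test against a 2-fold minimum. Against control, 1370 genes were called. The count was 401 with sex as a term, 220 without Y-positive libraries, 646 in a fit of 3 groups, 17 against a 2-fold minimum, 2283 with equal total RPKM outside the insulin genes and 4070 with library weights. Leaving out 1 library gave 589 to 3541. The highest came without control replicate 4 and the lowest without Etv4/5 replicate 2; without Etv4/5 replicates 1, 3 and 4 the counts were 830, 673 and 657, and without control replicates 1 and 2 they were 882 and 863.

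Against Cop1 deletion (226 genes), the count was 144 with equal total RPKM, 145 with that total outside the insulin genes, 3030 with library weights, 415 with sex as a term, 49 without Cop1 deletion replicates 2 and 3, and 0 by limma without Y-positive libraries, where 957 had an unadjusted p below 0.05. Leaving out 1 library gave 8 (Etv4/5 replicate 4) to 752 (Cop1 deletion replicate 4); without Etv4/5 replicates 2 and 3 the counts were 13 and 19, and without Cop1 deletion replicates 1 and 2 they were 501 and 82. Between sets (155 genes), the count was 3385 with library weights and 364 without the set 1 control that holds Esr1 reads. Leaving out 1 library gave 65 (set 1 control replicate 1) to 364; it was 95 without Etv1/4/5 replicate 3, 84, 87 and 97 without Etv4/5 replicates 2, 3 and 4, and 301 without control replicate 4 of set 2. The cause of these shifts was not tested, apart from those that follow from fewer libraries or a stricter test. The set comparison without Y-positive libraries was not run because no set 1 Etv1/4/5 library lacks Y-linked RNA. No paired analysis was possible because the labels carry no replicate numbers. Absolute depth is unknown, so no counting error is given for low values such as those of Etv4.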
